A study of Danio rerio with 40 samples.

Results

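The transcriptome of wild-type zebrafish larvae at 5 days post fertilization (dpf) was described from bulk RNA sequencing of 5 pools, each of 5 whole larvae. These 5 libraries were the wild-type control columns, titled control 1 to 5, of a deposited count table with 10 columns, in a series of 40 samples, and they are called pools 1 to 5 here. The larvae were wild-type cousins of fish lacking smad3a, smad3b, smad6a and smad6b, were raised in E3 medium with methylene blue, and received no other treatment. The other 35 samples, with their mutant larvae and adult aortas, were not analysed here, and no genotypes were compared. No labelled tissue or cell type separates these libraries, so every level is an average over the whole animal, in which fewer cells of a type and less RNA per cell cannot be told apart.

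By the end of the embryonic period a zebrafish larva has hatched, swims with a trunk packed with fast muscle fibres, sees with a working retina and digests food with liver, pancreas and intestine while it uses up the last of its yolk. Its genome also carries the remains of a genome duplication at the base of the teleost fishes, so many genes exist as a pair of copies whose names end in a and b. Such copies can divide a role between tissues, keep it jointly, or leave nearly all of it to a single copy.

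The deposited counts summed to 16062147, 28819083, 54145698, 48556835 and 110409906 in pools 1 to 5. Levels are given as CPM, a gene's counts relative to its pool's total, adjusted between pools with the TMM method of edgeR, and no transcript lengths were used, so shares and ratios between genes are of reads and not of transcripts. Of 32520 genes, 20132 averaged at least 1 CPM, 11957 averaged at least 10 CPM, and 4562 had no count in any pool. Between 21246 and 23990 genes had at least 10 counts in a pool, and after every pool was thinned to the depth of pool 1 the mean was 21080.2 ± 190.8 genes (SD, n = 5). Any pair of pools had a Spearman correlation across genes of 0.987 to 0.993, a description of the libraries. The edgeR dispersion corresponded to a biological variation of 14.4% between pools. The pools are numbered as biological replicates, but the labels do not say whether they came from separate clutches, so every test below measures the spread between these pools only. The genes that define the knockout line were read in all pools of this wild-type set. In pools 1 to 5, smad3a had 44.6, 41.2, 35.6, 40.7 and 38.0 CPM and smad6a had 26.7, 31.1, 29.2, 33.1 and 32.5 CPM.

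The most heavily counted genes were those of respiration, fast muscle, translation and skin. A mitochondrial gene, mt-co1 (subunit 1 of cytochrome c oxidase, ENSDARG00000063905), led with 13416.5, 14484.6, 18420.8, 16573.8 and 17883.6 CPM in pools 1 to 5. Next came actc1b, an alpha actin of striated muscle (ENSDARG00000099197), with 15130.5, 12025.1, 17594.4, 14550.3 and 16175.4 CPM. The values of the leading pair overlapped, and actc1b was above mt-co1 in pool 1 only. Then followed myhz1.1, a fast myosin heavy chain (ENSDARG00000067990), at 10983.6 ± 1171.8 CPM (SD, n = 5), eef1a1l1, which brings transfer RNAs to the ribosome, at 8982.5 ± 968.3 CPM, and krt4, a keratin of the larval skin surface, at 8475.1 ± 1040.2 CPM.

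Of the 20 most counted genes, the others were pvalb2 and pvalb1 (calcium-buffering parvalbumins of fast fibres), mylpfa and mylz3 (myosin light chains), tpma (tropomyosin), atp2a1 (the calcium pump of the sarcoplasmic reticulum), ckmb (creatine kinase) and myhz1.2 (fast myosin). To these were added mt-co2, mt-co3, mt-cyb and mt-atp6 of the mitochondrial genome, hspa8 (a constitutive chaperone), eef2b (elongation factor) and apoa1b (the main protein of high-density lipoprotein). Together the 20 genes held 13.6%, 13.4%, 15%, 14.5% and 15.0% of the counts in pools 1 to 5. Only 576 genes held 50% of all counts and 7831 genes held 90%. At 1000 CPM or above stood 112 genes.

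Tissue programmes were measured as the share of counts in 33 lists of marker genes. The lists together held 24.9% ± 0.45 of the counts (SD, n = 5), from 24.3% in pool 2 to 25.5% in pool 3, and 29 genes were in more than 1 list. Skeletal muscle was far ahead with 12.2%, 11.5%, 11.7%, 11.6% and 12.2% in pools 1 to 5. Epidermis followed with 2.45% ± 0.0984, liver with 1.83% ± 0.159, lens with 1.49% ± 0.204, photoreceptors with 1.37% ± 0.148 and exocrine pancreas with 1.02% ± 0.127. The lowest epidermis pool, at 2.36%, lay above the highest liver pool, at 2.04%, whereas the pool values of lens and photoreceptors overlapped. Below 1% on average came fibroblast and fin mesenchyme (0.981%), neurons (0.919%), cartilage (0.782%), enterocytes (0.75%), yolk (0.686%) and bone (0.624%). The leading yolk genes apoa2, apobb.1 and rbp4 are also in the liver list, and apobb.1 leads the enterocyte list too. Without its leading gene the yolk list held 0.408%, the enterocyte list 0.544% and the liver list, led by apoa1b, 1.39%. The yolk share is therefore not a separate tissue signal, and the liver share includes the reads of the same shared genes. Lists are unequal in size and their members unequal in length, so the shares are not proportions of cells.

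**Figure D1:**
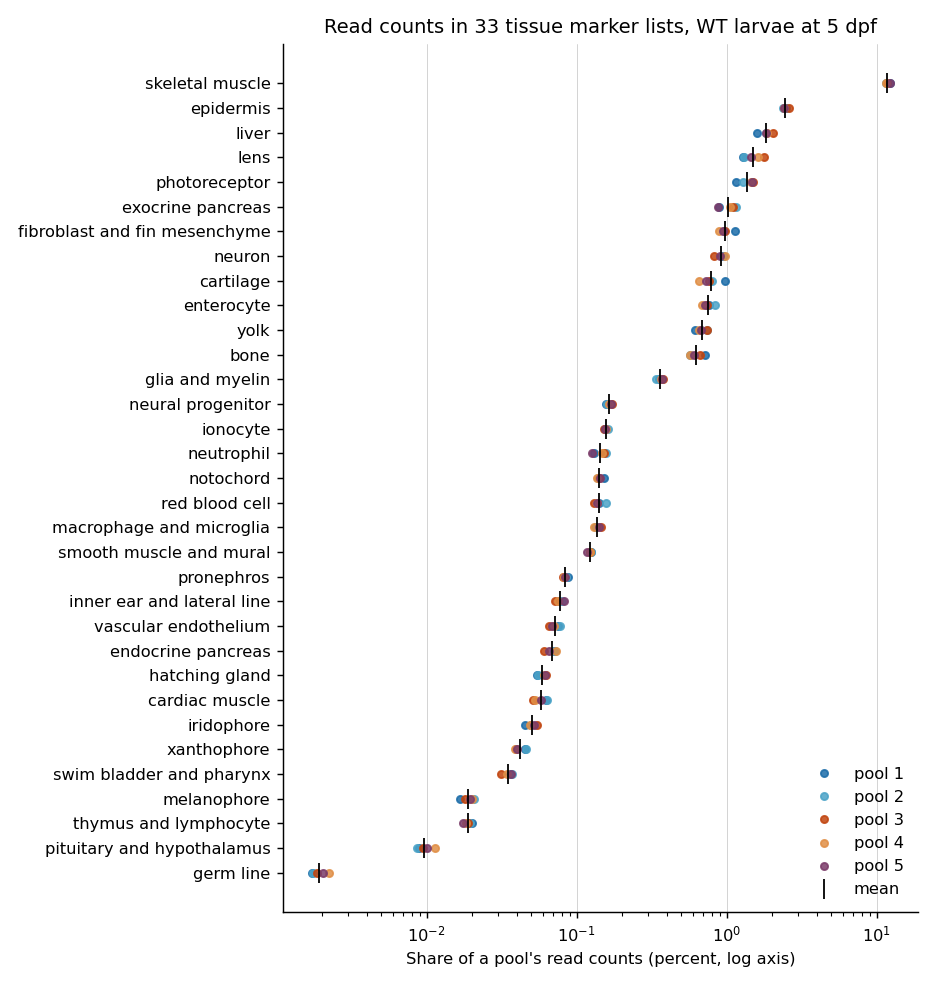
Share of each WT larvae pool's read counts in 33 lists of tissue marker genes, on a log axis in percent, with 1 point per pool and a bar at the mean of 5 pools. Skeletal muscle lies near 11.8%, epidermis near 2.45%, and the germ line list near 0.00192%.

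Housekeeping programmes took shares of the same order as the larger tissues. Names of cytosolic ribosomal proteins held 5.87%, 6.18%, 7.74%, 7.28% and 7.29% of the counts in pools 1 to 5, the 13 protein-coding genes of the mitochondrial genome held 4.51% ± 0.465 (SD, n = 5), and nuclear subunits of oxidative phosphorylation held 1.31% ± 0.154. In the ribosomal list 11 entries were kinases whose names begin with rps6k, which held 0.0281% of the counts. Pools 1 and 2 had the lowest shares of all 3 lists. Gene by gene, 80 of 82 ribosomal protein genes, 11 of 13 mitochondrial genes and 95 of 100 oxidative phosphorylation genes were lower in both pools 1 and 2 than in each of pools 3 to 5, against 29.4% of all genes at 1 CPM or above. Pools 1 and 2 were also the libraries with the fewest counts, and the part of depth in this order was not tested. Histone names held 0.31% ± 0.0223, carried by replacement forms such as h3f3c at 657.5 ± 82.4 CPM, and 14 of 35 entries reached 1 CPM. Every entry with a hist1 name, the core histones of dividing cells, stayed below 1 CPM, the highest being hist1h2a3 at 0.126 CPM. Near-identical histone copies can share or lose reads in counting, so these low values do not show that the genes are silent.

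In skeletal muscle the reads came mainly from the fast contractile apparatus. Of its 63 entries 62 reached 1 CPM, among them tnnt3b, the fast troponin T, at 3616.5 ± 276.7 CPM (SD, n = 5). Myosin heavy chain reads were 94.6% ± 0.216 fast (myhz1, myhz2 and related names) and 4.38% ± 0.162 slow (smyhc). A class of myh6 and myh7 names took 1.06% ± 0.0892. This class includes myh7bb, which is not among the cardiac markers used here, so it does not measure heart myosin alone. In pools 1 to 5 the main slow myosin, smyhc1, had 946.4, 984.9, 728.5, 721.3 and 834.0 CPM. Among actins, the skeletal and cardiac alpha forms took 70.8% ± 1.63 of the reads, the cytoplasmic forms actb1 and actb2 took 28.3% ± 1.56, and the smooth muscle form acta2 took 0.898% ± 0.0996. Near-identical tandem copies such as the myhz1 genes can exchange reads in counting, so levels of single copies are uncertain. Muscle genes did not all have the same order of pools. The titin gene ttn.1 had 2592.5, 2309.4, 1428.5, 1574.5 and 1639.9 CPM in pools 1 to 5, and the calcium release channel ryr1b had 337.6, 293.4, 189.4, 174.7 and 207.4 CPM. Both, like smyhc1, were highest in pools 1 and 2, where mylpfa and pvalb1 were lowest.

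Heart markers made up a small part of the reads. Its 23 markers held 0.0577% ± 0.00552 of the counts (SD, n = 5), and 25.2% of that was mybpc3, cardiac myosin-binding protein C. The regulatory light chain of heart muscle, myl7, had 29.7, 25.4, 32.1, 27.3 and 32.0 CPM in pools 1 to 5. Natriuretic peptide nppa, a hormone of the heart wall, was at 5.63 ± 0.612 CPM, and the early cardiac transcription factor nkx2.5 was at 0.708 ± 0.124 CPM. Smooth muscle and mural cell markers held 0.122% ± 0.00313, but 25.0% of that was tpm1, a tropomyosin. Without tpm1 the share was 0.0919%. Other members were acta2 at 213.2 ± 30.5 CPM, the smooth muscle myosin myh11a at 72.2 ± 7.83 CPM and tagln, an actin-binding protein, at 52.5 ± 7.22 CPM. Vascular endothelium held 0.0717% ± 0.00467. Its receptor kdrl, through which vessels sense vascular endothelial growth factor, had 50.9, 50.9, 44.4, 47.5 and 46.5 CPM, and cdh5, the adhesion molecule of endothelial junctions, had 45.9, 50.7, 35.8, 40.1 and 40.5 CPM. Both genes were lowest in pool 3.

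Digestive organs were represented mostly by secreted proteins. In the liver list the leading genes were apolipoproteins, with apoa1b at 3309.3, 3765.9, 5697.5, 4635.7 and 4692.6 CPM in pools 1 to 5. Transferrin (tfa, the iron carrier of plasma) had 932.8, 1242.5, 1430.0, 1365.4 and 1315.6 CPM, and fabp10a, the liver fatty acid binding protein, had 220.9, 270.2, 367.6, 399.6 and 315.9 CPM. All 3 were lowest in pool 1. Exocrine pancreas, which makes the digestive enzymes, held 0.893%, 1.16%, 1.1%, 1.06% and 0.874% of the counts, with its lowest values in pools 1 and 5. None of its 24 genes at 1 CPM separated pools 1 and 2 from the others, whereas 26.8% of all genes were higher there and 29.4% lower. Trypsin (prss1) had 1133.6, 1498.1, 1708.4, 1501.5 and 1265.3 CPM, and the elastase cela1.6 had 1323.3, 1569.3, 1776.7, 1578.7 and 1297.7 CPM. The same pools 1 and 5 were low in each of these genes. Within the digestive enzymes, proteases took 94.9% ± 0.327 of the reads, the amylase amy2a 2.83% ± 0.191 and lipases 2.28% ± 0.143. Enterocytes held 0.75% ± 0.0582, led by apobb.1, apoa1a and the chitinase chia.2 at 715.8 ± 43.4 CPM, and the fatty acid binding protein fabp2 was at 492.7 ± 62.4 CPM.

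Apolipoproteins, which package lipid from yolk, liver and intestine, had the make-up that moved most between pools among the families whose classes were summed here. Class A took 60.3%, 59.5%, 73.1%, 70% and 69.3% of the family's reads in pools 1 to 5, and class B took 21.6%, 24.0%, 10.3%, 13.2% and 13.3%. The class B share was higher in pools 1 and 2, where the class A share was lower. Single genes followed the same order, since apoa2 had 1955.1, 2340.2, 3911.5, 2855.0 and 2981.1 CPM and apobb.1 had 2318.6, 2894.7, 1580.6, 1638.0 and 1742.0 CPM. Over all genes at 1 CPM, 26.8% were higher in both pools 1 and 2 than in each other pool and 29.4% were lower. The part of transcript length in this division of pools was not tested. Both apoa2 and apobb.1 also led the yolk list, followed by rbp4, the retinol carrier, at 1341.9 CPM. The egg yolk precursors vtg1 to vtg7, which the mother's liver makes, were all below 1 CPM, the highest being vtg7 at 0.65 ± 0.146 CPM.

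Crystallins fill the transparent fibre cells of the lens. Their reads were 55.3% ± 0.628 beta, 44.3% ± 0.643 gamma and 0.376% ± 0.0444 alpha. The leading gene, crybb1l1, had 1378.2, 1432.8, 2058.7, 1802.1 and 1587.3 CPM in pools 1 to 5, and cryaa, an alpha crystallin, had 55.4 ± 9.42 CPM. Of 45 lens genes at 1 CPM, 39 were lower in both pools 1 and 2 than in each other pool, against 29.4% of all genes at 1 CPM. None varied by less than 1.2-fold, against 21.9% of all genes. The crygm2d genes are near-identical tandem copies, so levels of single copies are uncertain.

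In the retina the reads of visual opsins, the light-sensing proteins, were divided mainly between rods and ultraviolet cones. Rod opsin (rho) took 32.3% ± 1.42, ultraviolet opsin (opn1sw1) 30.6% ± 0.71, red opsins 17.5% ± 1.17, green opsins 11.9% ± 0.378 and blue opsin (opn1sw2) 7.62% ± 0.141 (SD, n = 5). In pools 1 to 5, rho had 2234.9, 2351.4, 3456.7, 2833.8 and 3010.7 CPM, and opn1sw1 had 2074.9, 2301.4, 3015.8, 2804.1 and 2941.4 CPM. Their ranges overlapped, and both were lowest in pools 1 and 2. Tandem opsin copies were used very unequally. For red, opn1lw2 was at 1481.9 ± 136.5 CPM and opn1lw1 at 8.5 ± 1.74 CPM, and for green, opn1mw1 was at 1008.5 ± 137.7 CPM, opn1mw2 at 6.91 ± 0.687 CPM and opn1mw3 at 0.0586 CPM. Cone arrestin arr3a, which shuts off the cone opsins, was the photoreceptor gene with the largest spread among those at 10 CPM, with 195.8, 197.7, 372.2, 370.3 and 358.2 CPM. Pools 1 and 2 were again the low ones.

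**Figure D2:**
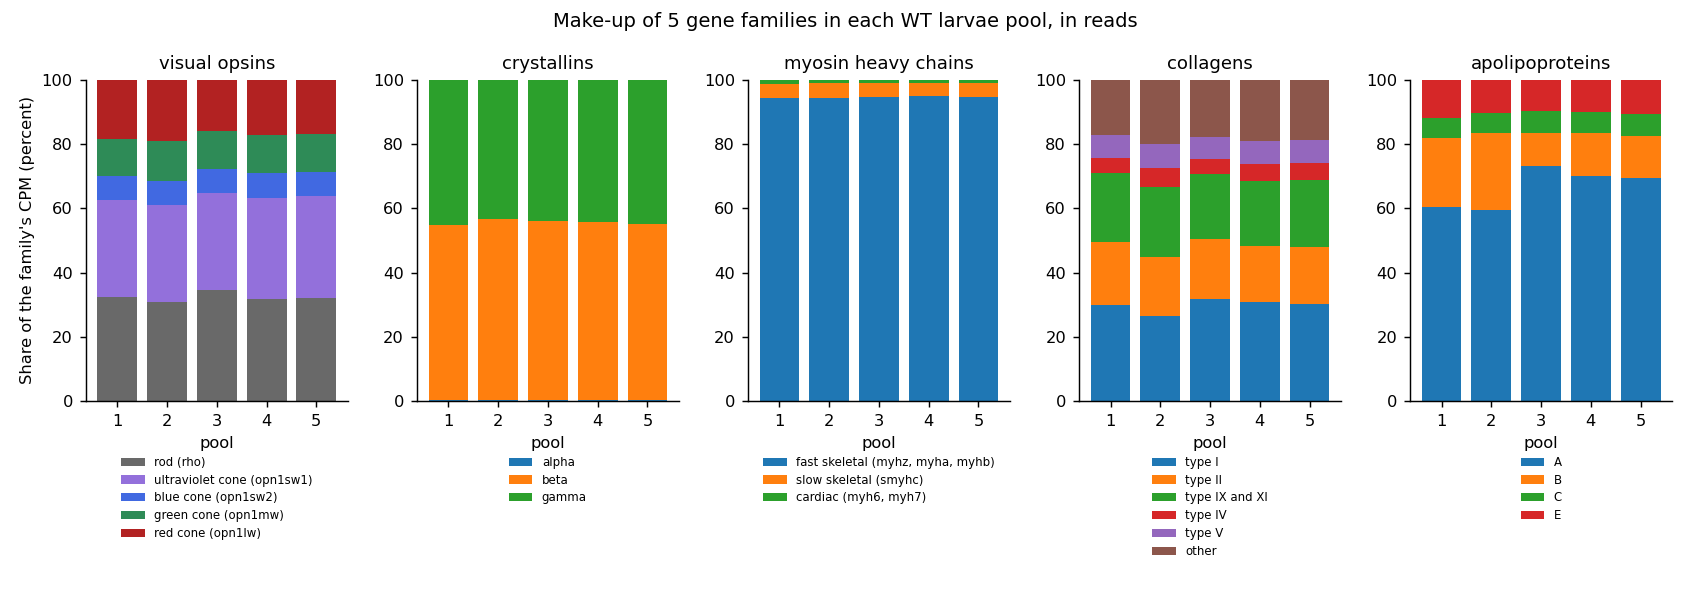
Make-up of 5 gene families in each WT larvae pool as stacked bars, with the pool on the horizontal axis and the percent of the family's CPM, in reads, on the vertical axis. Crystallin and myosin bars are nearly the same in all pools, while the class B apolipoprotein segment is larger in pools 1 and 2, at 21.6% and 24.0%, than in pools 3 to 5, at 10.3% to 13.3%.

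Skin and connective tissue were dominated by keratins and fibrillar collagens. Epidermis was led by krt4, krt5 (3811.5 ± 347.7 CPM, SD, n = 5) and krtt1c19e (2251.3 ± 177.3 CPM), the last being a keratin of basal skin cells. Ionocytes, the ion-transporting cells of larval skin, held 0.156% ± 0.00346, and the calcium channel trpv6 had 12.5, 12.8, 11.8, 13.6 and 14.1 CPM in pools 1 to 5. Fin-fold actinotrichia genes were abundant, with and2 at 595.3 ± 29.5 CPM and and1 at 291.3 ± 24.7 CPM. Of collagen reads, type I took 29.8% ± 1.99, types IX and XI together 20.9% ± 0.621, type II 18.4% ± 0.951, type V 7.18% ± 0.366 and type IV 5.14% ± 0.395. The collagen names held 1.88%, 1.53%, 1.52%, 1.3% and 1.41% of the counts, with pool 1 highest. Cartilage collagen col2a1a had 2793.2, 2076.5, 2364.0, 1733.7 and 1987.1 CPM, and col1a1a, of bone and skin, had 2319.2, 1682.1, 2077.9, 1700.3 and 1806.5 CPM. Both were highest in pool 1, and pool 3 came next. Bone-restricted genes were low beside these, such as sp7, the osteoblast transcription factor, at 6.32 ± 0.849 CPM, and type I collagen counts toward both the bone and the fibroblast list. Notochord markers held 0.142% ± 0.00639, with the transcription factor tbxta at 8.68 ± 1.18 CPM. That list was led by ptgdsb.1 at 341.0 CPM, col9a1a at 294.0 CPM and epyc at 230.8 CPM. Both col9a1a and epyc also count in the cartilage list, so the notochord share is not a separate tissue signal.

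The nervous system list of 61 neuron entries was spread evenly, its leading gene holding 5.63% of its reads. That gene, atp1a3a, a neuronal sodium pump, had 527.4, 516.2, 470.2, 560.7 and 525.8 CPM in pools 1 to 5. The vesicle fusion gene snap25a was at 353.3 ± 32.4 CPM, the calcium sensor of release syt1a at 340.6 ± 27.8 CPM and the RNA-binding protein elavl3 at 290.9 ± 47.1 CPM. Glia and myelin held 0.361% ± 0.0148, with gfap, an astroglial filament, at 236.5 ± 12 CPM, and the myelin basic protein copies mbpb at 117.6 ± 12.8 CPM and mbpa at 105.3 ± 8.78 CPM. Neural progenitors held 0.164% ± 0.00613, where sox2, a transcription factor of progenitors, was at 72.1 ± 3.95 CPM. Inner ear and lateral line markers held 0.0772% ± 0.00403, led by stm, a protein of the otolith matrix, at 181.8 ± 21.3 CPM.

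Blood showed the larval globin set almost alone. Embryonic and larval globins of the hbae and hbbe names summed to 557.9 ± 27.8 CPM (SD, n = 5), against 0.124 ± 0.0727 CPM for the adult hbaa and hbba names, of which the 3 hbba entries had no count. A count of 0 allows up to 0.187 CPM in pool 1 and up to 0.0272 CPM in pool 5, taking 3 counts as the limit and covering counting error only. The alpha globin hbae3 had 263.4, 299.7, 295.9, 275.7 and 293.1 CPM in pools 1 to 5. A beta globin, hbbe1.2, had 70, 81.1, 29.9, 38.7 and 34.4 CPM. The alpha globin was nearly level over the pools, whereas hbbe1.2 was highest in pools 1 and 2. All hbae and hbbe names together had 535.7, 606.0, 543.8, 554.7 and 549.0 CPM. Similar tandem globin copies can exchange or lose reads in counting, so levels of single copies are uncertain and the summed level may be too low.

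The neutrophil and macrophage lists were small once the leading gene of each was left out. Their remaining members were not screened for expression in other tissues, and ctsba, at 125.0 CPM, led what was left of the macrophage list. The neutrophil list held 0.143% of the counts, but 80.7% of that was cpa5, a pancreatic carboxypeptidase, and without it the share was 0.0266%. The macrophage and microglia list held 0.137%, of which 79.1% was apoeb, and without it the share was 0.0288%. Among more specific genes, the neutrophil peroxidase mpx had 14.4, 15, 15, 19.2 and 15.6 CPM in pools 1 to 5 and the macrophage pore protein mpeg1.2 had 29.9, 31.3, 23.9, 22.6 and 25.8 CPM. Thymus markers were detectable at low level, with rag1, which rearranges antigen receptor genes, at 9.52 ± 0.964 CPM, the thymic epithelial factor foxn1 at 2.49 ± 0.265 CPM and the T cell kinase lck at 1.41 ± 0.272 CPM. Markers of mature T cells were lower, cd4-1 being at 0.215 ± 0.0392 CPM. In that list 65.9% of the reads were tox, a transcription factor that is not restricted to lymphocytes, and the entry cd3eap names a subunit of RNA polymerase I.

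Small organs were visible through their defining genes. Melanophore markers held 0.019% ± 0.00168 of the counts, with the melanosome fibre protein pmela at 39.3 ± 5.0 CPM and tyr, the first enzyme of melanin synthesis, at 2.55 ± 0.481 CPM. In xanthophores, gch2, of pteridine pigment synthesis, had 17.2, 20.4, 40.5, 26.2 and 43.7 CPM in pools 1 to 5, and 37.6% of this list's reads were mycbp2, a ubiquitin ligase known from the nervous system. Some islet hormones were close to each other, with ins (insulin) at 20.5 ± 4.55 CPM, sst1.1 (somatostatin) at 19.2 ± 2.66 CPM and gcga (glucagon) at 15.6 ± 1.72 CPM. Their ranges overlapped. Pituitary hormones were led by pomca, the precursor of the adrenal-stimulating and melanocyte-stimulating hormones, with 12.2, 13, 16.7, 20.7 and 18.3 CPM, and by gh1 (growth hormone) at 10 ± 1.31 CPM. In the kidney, nphs1, of the glomerular filter, was at 3.44 ± 0.528 CPM. The surfactant protein gene sftpbb was at 5.94 ± 0.975 CPM, within a swim bladder and pharynx list of 0.0351% ± 0.00224.

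The hatching gland list held 0.0589% of the counts, from ctsl.1, a cathepsin, at 228.3 CPM, xbp1, a factor of secretory cells, at 186.4 CPM and cd63, a membrane protein of vesicles, at 129.3 CPM. Its enzymes that digest the egg envelope were at or near 0, he1.1 having at most 0.291 CPM and he1.3 no count. The germ line list held 0.00192% ± 0.000212 of the counts (SD, n = 5), and 6 of its 17 genes reached 1 CPM, the highest being ddx4, an RNA helicase of germ cells, with 3.16, 2.58, 3.86, 5.08 and 4.37 CPM in pools 1 to 5.

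Gene copies were compared for every pair of names that differ only in a final a or b. Of 2886 such pairs, 60 were left out because a name belonged to more than 1 gene identifier, and 2757 had enough counts to test. The edgeR quasi-likelihood test against a 2-fold difference, with the pool as a block and Benjamini-Hochberg adjustment over all tested pairs, called 841 pairs with the a copy higher (30.5%) and 677 with the b copy higher (24.6%), and 1239 were not called. A median pair was 1.3 apart on the log2 scale in either direction, and 470 pairs were estimated at over 8-fold. In 216 called pairs a copy was below 1 CPM. The ratio is of reads, so a longer copy counts for more, and protein likeness was not used, so some pairs are not duplicates. For instance, fga and fgb code for different chains of fibrinogen, sdha and sdhb for different subunits of succinate dehydrogenase, and aurka and aurkb for different mitotic kinases.

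The most unequal pairs were ranked among those called with both copies at 1 CPM or above. For synaptotagmin, syt1a had 361.8, 354.1, 299.5, 363.2 and 324.2 CPM in pools 1 to 5, against 2.5, 1.91, 1.88, 1.83 and 2.16 CPM for syt1b. The a copy was far above in every pool, with a log2 ratio of 7.37 (edgeR adjusted p = 8.75e-11). Almost as unequal were the water channel pair aqp3 (7.15), the liver fatty acid binding protein pair fabp10 (6.93) and the respiratory subunit pair ndufs8 (6.91). In the other direction, cryba1a had 5.31, 3.37, 5.53, 4.38 and 4.61 CPM and cryba1b had 785.5, 807.4, 1244.5, 1107.4 and 974.5 CPM. This beta crystallin pair had the lowest log2 ratio in that set, -7.76 (edgeR adjusted p = 1.32e-10). It was followed by the collagen pair col5a3 (-6.20), the dehydrogenase pair dhrs7c (-5.88), the translation release factor pair etf1 (-5.79) and the glutamate decarboxylase pair gad1 (-5.69).

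Other abundant pairs shared their reads almost evenly. For another beta crystallin, cryba2a had 484.1, 495.3, 728.6, 644.6 and 593.7 CPM in pools 1 to 5, against 463.9, 498.6, 744.1, 643.2 and 636.1 CPM for cryba2b. Neither copy was ahead in all pools, and both were lowest in pools 1 and 2. The lens water channel copies mipa and mipb averaged 180.5 and 180.6 CPM, a log2 ratio of 0.00, and dyrk1aa and dyrk1ab, a kinase pair, and tnika and tnikb, another, also gave 0.00. Muscle creatine kinase had a log2 ratio of -0.20, ckma averaging 4063.5 CPM and ckmb 4644.7 CPM. Type I collagen had 58.0% of its reads in col1a1a (log2 ratio 0.47), which was not called. None of these pairs passed the test against 2-fold.

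Within a tissue, pairs could be even or lopsided. Photoreceptors had 11 pairs, of which 3 were called with the a copy higher and 4 with the b copy higher, against 30.5% and 24.6% of all pairs. The cone transducin gamma pair had gngt2a at 24.8 CPM and gngt2b at 475.9 CPM (log2 ratio -4.26), while the outer segment disc pair prph2a and prph2b was not called (-0.53). Of 7 cartilage pairs, 4 were called with the a copy higher and 1 with the b copy higher. The collagen pairs col2a1 and col11a1 favoured the a copy, by 1.82 and 1.76. The gene col10a1a of hypertrophic cartilage and bone was ahead of col10a1b by 5.93. The brain fatty acid binding protein fabp7a led fabp7b by 5.21, the neuronal membrane protein rtn1a led rtn1b by 1.92, and pomca led pomcb by 4.37. The matrix protein pair postn favoured the b copy (-2.53), as did the intestinal peptidase pair anpep (-2.14). Apart from prph2, each pair named here passed the edgeR test against 2-fold, the highest adjusted p being 1.06e-07 for anpep.

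The BMP and TGF-beta pathways, in which receptors phosphorylate Smad proteins that then enter the nucleus with Smad4, had 21 pairs. The a copy was called higher in 7 and the b copy in 5, and 9 were not called, against 30.5% and 24.6% called over all pairs. Among the Smads, smad3a had 44.6, 41.2, 35.6, 40.7 and 38.0 CPM in pools 1 to 5, against 14.0, 13.1, 13.2, 13.8 and 13 CPM for smad3b, the TGF-beta branch effector. The a copy held 74.8% of the reads in this pair, a log2 ratio of 1.57 (edgeR adjusted p = 3.07e-06), and smad4 was similar (1.62, adjusted p = 4.35e-06). The inhibitory Smad pair was nearly even, with smad6a at 26.7, 31.1, 29.2, 33.1 and 32.5 CPM and smad6b at 24.0, 25.8, 25.2, 23.5 and 26.8 CPM. Every pool had smad6a slightly above smad6b, and the log2 ratio of 0.28 was not called.

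Upstream, ligand and receptor pairs were called in both directions. For ligands, tgfb1a led tgfb1b (3.04, edgeR adjusted p = 2.51e-07) and bmp7b led bmp7a (-3.74, adjusted p = 1.26e-08), while bmp2 was not called (-1.05, adjusted p = 0.191). For type II receptors, tgfbr2a had 2.44, 3.07, 2.9, 2.64 and 2.14 CPM, against 42.3, 39.5, 42.7, 45.8 and 46.7 CPM for tgfbr2b, a log2 ratio of -4.06. The activin receptors split, acvr2a favouring the a copy (2.74) and acvr2b the b copy (-1.14, adjusted p = 0.0418). The acvr2b call was lost without pool 1, 2 or 4 and in the limma and DESeq2 tests. The BMP type II receptor pair bmpr2 was not called (1.05, adjusted p = 0.238), and the type I pair bmpr1a was not called either (0.93). Type I receptors acvr1b (2.41) and tgfbr1 (-2.03) were called. Downstream, id2a, a BMP target that blocks helix-loop-helix factors, led id2b (3.33), and the decoy receptor bambia led bambib (1.81). Among extracellular modulators fstl1b led fstl1a (-3.80), whereas fst (0.58) was not called, nor were the repressors ski (0.79) and skil (0.60).

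**Figure D3:**
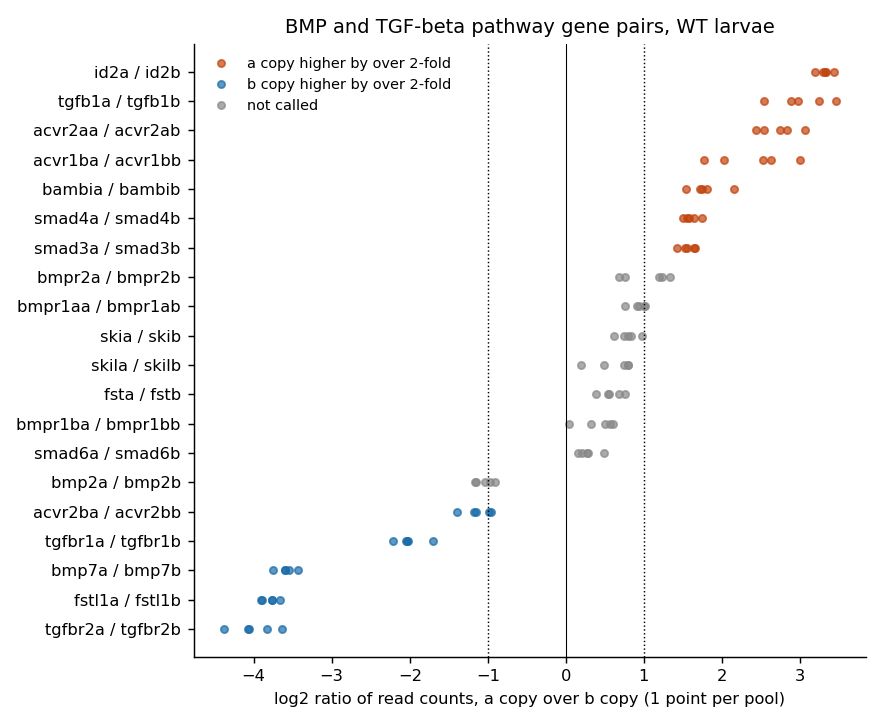
Log2 ratio of read counts, a copy over b copy, for 20 of the 21 pairs of the BMP and TGF-beta pathways, with 1 point per WT larvae pool, dotted lines at 2-fold and colours for the edgeR call against 2-fold. The points of smad3 lie between 1.42 and 1.66, those of smad6 between 0.15 and 0.49, and those of tgfbr2 between -4.38 and -3.64.

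Gene levels were next compared between pools. A gene of at least 1 CPM on average was counted as variable when its highest pool was at least 2 times its lowest, which 1367 of 20132 genes were (6.79%), and as stable when its highest pool was under 1.2 times its lowest, which 4406 were (21.9%). These are descriptions of 5 values and carry no test. The rates depended on level. Variable genes made up 13.7% of those between 1 and 10 CPM, 2.28% between 10 and 100 CPM and 0.447% between 100 and 1000 CPM. Counting alone gave a median SD of log2 CPM of 0.119 in the lowest band, where the median measured SD was 0.221, and of 0.0489 between 10 and 100 CPM, where it was 0.141. Above 1000 CPM a single gene, apoa2, was variable, at 2.0-fold, and 7.14% were stable.

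**Figure D4:**
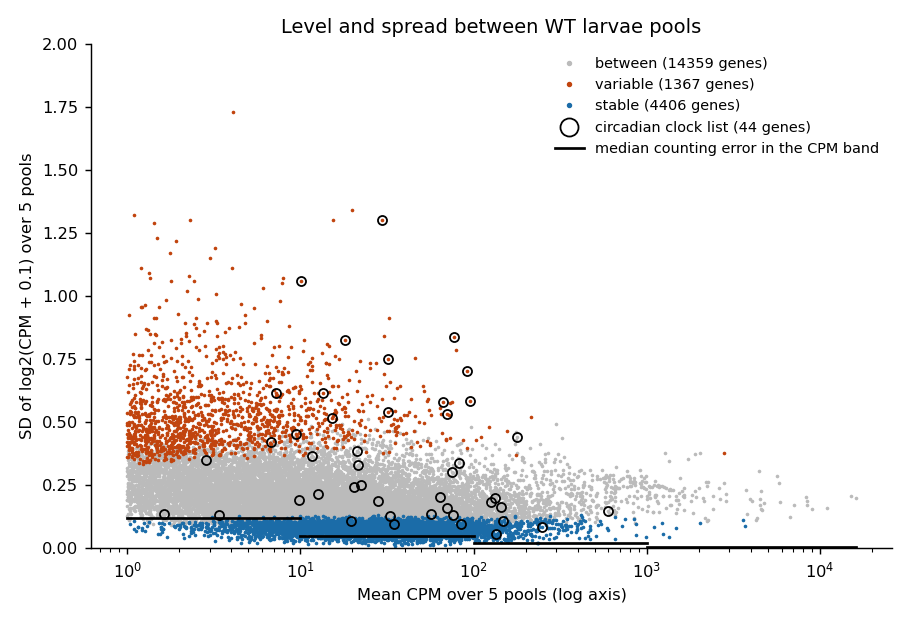
SD of log2(CPM + 0.1) over the 5 WT larvae pools against mean CPM on a log axis, with 1 point per gene of at least 1 CPM, coloured as variable (1367 genes), stable (4406 genes) or between. Open circles mark 44 circadian clock genes, several of which lie high at 10 to 100 CPM, and black lines give the median counting error in each CPM band.

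Among the 246 variable genes of at least 10 CPM, 196 were higher in both pools 1 and 2 than in each of pools 3 to 5 and 32 were lower in both. The corresponding shares were 25.8% and 36.4% over all 11957 genes at that level. The labels do not divide the pools in this way, and no test was made of the division. Only 18 variable genes had another order. The widest spread of all at this level belonged to rrm2 (ENSDARG00000020711), a subunit of ribonucleotide reductase, with 34.1, 8.09, 27.9, 3.92 and 24.9 CPM in pools 1 to 5. Another identifier with the same name (ENSDARG00000078069) had 33.6, 67.7, 59, 66.1 and 54.2 CPM. The first was low in pools 2 and 4, where the second was high. Another of the 18, chosen after its values were seen, was pde6ha, a cone phosphodiesterase subunit, with 130.2, 61.9, 121.8, 121.8 and 114.1 CPM, in which pool 2 alone was low.

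Among the 44 lists, that of the circadian clock had the largest number of variable members, though cardiac muscle had a larger share (36.8%). Of 44 at 1 CPM, 14 were variable (31.8%, against 6.79% of all genes), 6 of them higher in pools 1 and 2 and 8 lower. The nuclear receptor nr1d1, which represses the clock activators, had 8.65, 8.22, 40.4, 46.8 and 45.0 CPM in pools 1 to 5. The period gene per1a, part of the negative limb, had 4.35, 3.24, 15.7, 14.3 and 13.2 CPM, and per1b had 48.6, 41.0, 83.7, 88.6 and 88.5 CPM. All 3 were low in pools 1 and 2, with no overlap with the other pools. Opposite to them stood rorcb, a receptor that activates the same sites, with 114.8, 137.7, 40.0, 48.1 and 44.2 CPM, and nfil3-5, a repressor of output genes, with 132.9, 148.1, 51.6, 64.9 and 59.9 CPM. The activators clocka and npas2 were high in pools 1 and 2 as well, clocka having 16.5, 22.9, 8.81, 10.4 and 8.61 CPM. The output factors tefa, dbpa and dbpb were low there, tefa having 58.7, 56.7, 112.1, 121.3 and 126.9 CPM.

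Few clock genes were level. In 18 of the 44, both pools 1 and 2 were above each of pools 3 to 5, and in 20 they were below. Over all genes at 1 CPM these shares were 26.8% and 29.4%. The gene nr1d2b, not counted as variable, had 123.4, 122.7, 200.3, 225.2 and 216.5 CPM in pools 1 to 5. Stable clock genes numbered 5 of 44 (11.4%, against 21.9% of all genes). Among the stable ones, the light-induced period gene per2 had 80.3, 77.9, 92.1, 87.5 and 85.1 CPM and the repressor bhlhe40 had 242.2, 233.0, 249.7, 271.7 and 241.9 CPM in pools 1 to 5. The pineal melatonin enzyme aanat2 was at 3.41 ± 0.304 CPM. No clock gene was variable within pools 1 and 2 or within pools 3 to 5. Over all 20132 genes at 1 CPM, 146 were variable within pools 1 and 2 and 124 within pools 3 to 5. Most other lists had no such gene either, so this absence is not particular to clock genes. The labels give no hour of collection, and its part in these values was not tested.

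**Figure D5:**
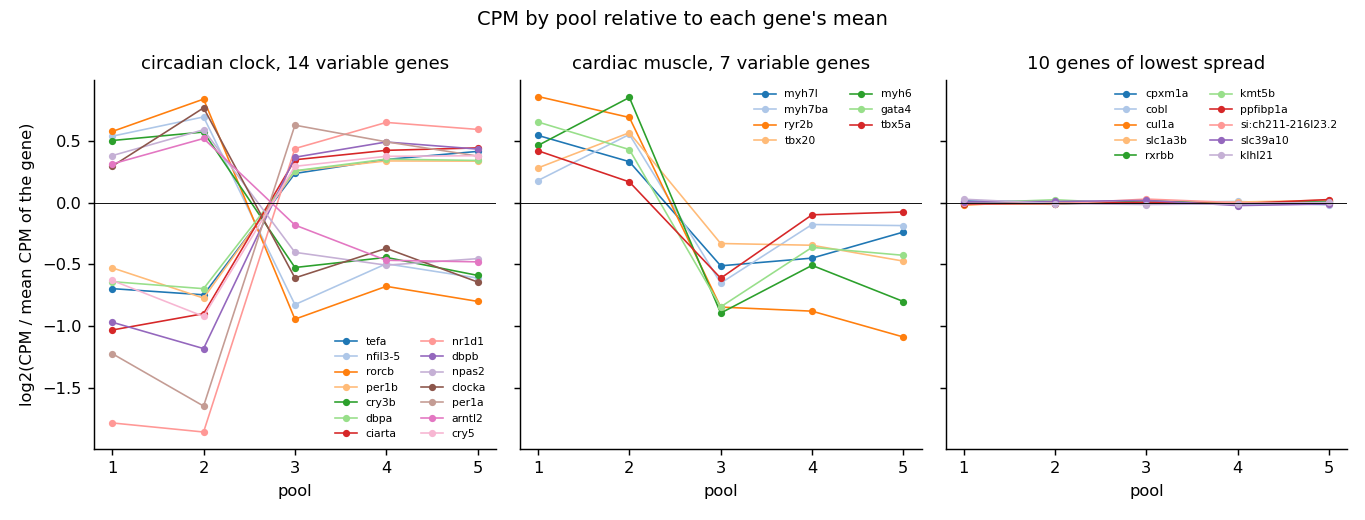
Log2 of CPM over the gene's mean CPM in each WT larvae pool for 14 variable clock genes, 7 variable cardiac genes and the 10 genes of lowest spread at 10 CPM or above, with lines that join the values of a gene and imply no order of pools. Clock genes part into a group low and a group high in pools 1 and 2, all 7 cardiac genes are high there, and the genes of lowest spread stay on the zero line.

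Cardiac genes had 7 variable members among 19 (36.8%, against 6.79% of all genes). All 7 were higher in both pools 1 and 2 than in each other pool, as were 65.3% of all variable genes. The calcium release channel ryr2b had 8.65, 7.69, 2.65, 2.59 and 2.24 CPM in pools 1 to 5, the atrial myosin myh6 had 4.59, 6.01, 1.79, 2.34 and 1.91 CPM, and the transcription factor gata4 had 3.7, 3.17, 1.31, 1.83 and 1.75 CPM. The others were the myosins myh7l and myh7ba and the transcription factors tbx20 and tbx5a. Of the 7, 5 had means of 2.0 to 4.76 CPM, a band in which 13.7% of all genes were variable, and myl7, mybpc3 and nppa were not variable. No cardiac gene varied by 2-fold within pools 1 and 2 or within pools 3 to 5, as in most other lists. Over all 20132 genes at 1 CPM, 146 and 124 did so.

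Red blood cell genes had 7 variable members of 26 (26.9%), among them the globins hbae1.1, hbae5, hbbe1.1 and hbbe1.2. Another was the transferrin receptor tfr1a, which had 10, 15.4, 9.08, 7.68 and 9.53 CPM in pools 1 to 5. Stress and immediate early genes had 6 of 46, against 6.79% of all genes, and 5 of those were higher in pools 1 and 2, as were 65.3% of all variable genes. The early response factor fosab had 44.1, 55.5, 14.6, 19.7 and 18.5 CPM, and the cytokine inhibitor socs3a had 25.8, 32.2, 12.9, 12.6 and 12.1 CPM. In the other direction the chaperone hsp90aa1.1 had 89.6, 78.1, 165.9, 125.1 and 156.0 CPM. Connective tissue added elnb, an elastin of elastic fibres, with 46.4, 30.9, 17.6, 14.9 and 15.6 CPM, highest in pools 1 and 2. Skeletal muscle had 1 variable gene of 62, oxidative phosphorylation 0 of 100 and neurons 0 of 61, against 2.28% of all genes between 10 and 100 CPM and 0.447% between 100 and 1000 CPM.

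At the stable end, cpxm1a, a carboxypeptidase-like protein, had 35.4, 35.2, 34.8, 34.8 and 35.1 CPM in pools 1 to 5. Next were cobl, an actin nucleator, at 58.4, 58.8, 58.6, 58.9 and 57.7 CPM, and cul1a, a scaffold of ubiquitin ligases, at 55.2, 56.3, 55.8, 55.8 and 56.5 CPM. Their SDs of log2 CPM, 0.0101, 0.012 and 0.0127, were below the 0.0318 to 0.0411 that counting error alone gives, so their order among the stable genes is not meaningful. By list, the largest stable shares were vascular endothelium, with 14 of 34 (41.2%), BMP and TGF-beta signalling, with 27 of 69 (39.1%), and notochord, with 5 of 14 (35.7%), against 21.9% of all genes. The share depended on level, with 31.2% of all genes stable between 10 and 100 CPM and 8.89% between 1 and 10 CPM. Stable endothelial genes included kdrl, fli1a, tie1, pecam1, flt1 and flt4. Stable pathway genes included smad1, smad2, smad3b, smad4a, smad5, smad6b, smad9 and id1, the last with 217.0, 224.6, 245.8, 233.7 and 229.8 CPM.

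That pathway also had 6 variable genes of 69, against 6.79% of all genes, and 5 of them were receptors or a co-receptor. The co-receptor tgfbr3 had 12.9, 17.2, 7.53, 6.52 and 6.53 CPM in pools 1 to 5, bmpr2b had 27.4, 27.4, 13.8, 13.5 and 12.3 CPM, and acvr1bb had 17.7, 20.3, 9.53, 12.6 and 11.7 CPM. With tgfbr1a and tgfbr1b, all 5 were highest in pools 1 and 2, as were 65.3% of all variable genes. The sixth, pmepa1, a TGF-beta target that restrains the pathway, was at 1.56 ± 0.455 CPM with another order of pools.

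Genes often used to scale quantitative PCR were not equally level. Of 34 at 1 CPM, 5 were stable (14.7%, against 21.9% of all genes). The purine salvage enzyme hprt1 had 39.4, 42.1, 40.7, 38.8 and 42.6 CPM in pools 1 to 5, an SD of log2 CPM of 0.0572, and ubc, a polyubiquitin gene, had 455.7, 448.1, 513.9, 464.9 and 473.9 CPM (0.0769). The beta actin actb2 had 4081.8, 3914.1, 4786.4, 4367.4 and 4325.1 CPM (0.11). Wider were eef1a1l1 (0.157), gapdh (0.192), tbp (0.227) and rpl13a (0.263). The lysosomal enzyme gusb was the only variable member, with 50, 43.4, 21.6, 32.6 and 33.7 CPM. In 29 of the 34 genes both pools 1 and 2 were below each of pools 3 to 5, against 29.4% of all genes at 1 CPM and 36.4% at 10 CPM.

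Ratios within pairs were about as level as single genes. Among 1373 pairs with both copies at 10 CPM or above, the median SD of the log2 ratio was 0.139, against 0.138 for log2 CPM of the copies. The ratio moved by 2-fold or more between pools in 47 pairs (3.42%) and by less than 1.2-fold in 463, and the same copy was higher in all pools in 1228. Among the steadier ratios was that of ppia, a peptidyl-prolyl isomerase, whose SD was 0.03 around 1.59. Among clock pairs of any level 4 of 14 moved by 2-fold, in per1, clock, rorc and tef, against 373 of all 2757 tested pairs. Of the 1373 pairs at 10 CPM or above, the widest movement was in fmnl2, a formin of the actin cytoskeleton. In that pair fmnl2a had 18.2, 24.1, 8.14, 8.45 and 7.35 CPM in pools 1 to 5, against 58.1, 58.9, 57.9, 59 and 56.9 CPM for fmnl2b. The a copy was highest in pools 1 and 2 and the b copy was level. In socs3 the higher copy changed, since socs3b had 18.6, 16.0, 19.7, 19.2 and 17.0 CPM and lay below socs3a in pools 1 and 2 and above it in pools 3 to 5.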

How the data were processed

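Each library was made with a stranded total RNA kit from a pool of 5 whole larvae at 5 dpf, per the labels. The authors deposited raw counts per Ensembl gene. FastQC 0.11.9, Trim Galore 0.6.6, featureCounts (Subread 2.0.0), MultiQC 1.9 and the build GRCz11 are named, per the submitters' processing notes; the aligner, the annotation release and the strand setting are not given in the sources used here. Reads of overlapping or antisense genes may therefore be mixed, and near-identical copies may share reads.

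From these counts CPM were computed with TMM scaling (R 4.3.3, edgeR 4.0.16). Depth was 16062147 to 110409906 counts per pool. A gene's spread was the SD of log2(CPM + 0.1). Pairs were tested with an edgeR quasi-likelihood fit, with 1 row per pair, the pool as a block, and glmTreat against 2-fold, called at an adjusted p under 0.05. The test was planned with coding lengths as an offset. No lengths were used, so it compares reads. On simulated pairs the test recovered 100% of log2 ratios of 2 or 3, with 0 calls among 2557 pairs simulated as equal. Ratios near 2-fold were not simulated, so its error there was not measured. Since both copies come from the same library, the pool pairs them. Alternatives used limma 3.58.1 and DESeq2 1.42.0, other scaling, filters and subsets of pools, and Python 3.11.15, pandas 2.3.3 and numpy 2.4.6 made the summaries.

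Genes were named by rule. These were the 20 most counted, the 3 most counted and the most variable of each list, and the 10 most and 10 least variable at 10 CPM. Of pairs, they were the 5 most unequal in each direction, the 5 nearest to equal at 50 CPM, all in the BMP and TGF-beta list and up to 2 of each other list. A few pairs that the rule picked are not reported here. Further list members were named for their known role after their values were seen. The members and lists were chosen with earlier results of these data known.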

Additional observations from a re-analysis of the deposited data

Results flagged for a closer look

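In 8 of 357 results tested over the 5 pools, a single pool lay apart from the others by more than 0.71 of the whole range, Dixon's 95% value for 5 samples, which chance gives in about 1 in 20. For kmt5b, a histone methyltransferase among the 10 genes of lowest spread, pool 2 had 69.6 CPM and the others 67.9 to 68.3 CPM. For trpm1b, a melanophore channel, pool 4 had 52.4 CPM and the others 41.6 to 42.3 CPM. For b2ml, a light chain of class I histocompatibility proteins, pool 3 had 124.2 CPM and the others 145.4 to 147.7 CPM. For tuba1b, an alpha tubulin, pool 3 had 44.0 CPM and the others 32.4 to 34.3 CPM.

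Among log2 ratios of a over b, dhrs7c was at -7.09 in pool 1, where dhrs7ca had 0.358 CPM, and at -5.83 to -5.32 in the other pools. The myosin light chain pair mylpf was at 2.17 in pool 5 and at 2.26 to 2.29 in the others. The envoplakin pair evpl was at -2.19 in pool 3 and at -1.66 to -1.46 in the others, and the hedgehog pair shh was at 1.88 in pool 1 and at 1.52 to 1.61 in the others.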

How the results depend on the processing

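No named pair that passed the test changed direction under any alternative run, and the counts of pairs were lower or higher by less than 1.5 times except with another fold. Pools 1 and 2, the fewest counts, stand apart in many genes, so variable and stable genes depend on which pools enter. Of 1367 variable genes, taken over 5 pools, the same rule, with scaling and mean level taken anew, gave 169 with pools 1 and 2 only, 101 with pools 3 to 5 only, 8177 with no filter on low values, 246 at 10 CPM or above and 916 to 1214 with a pool left out. Stable genes numbered 4406, against 15843 with pools 1 and 2 only, 12927 with pools 3 to 5 only and 5108 to 6524 with a pool left out, since fewer pools give a smaller range. With all pools thinned to the lowest total, there were 1976 variable and 3521 stable genes. Scaling by library totals gave 1734 variable and 4643 stable genes. The share of the 20 most counted genes, 14.4%, was 13.5% with pools 1 and 2 only, 13.3% without mitochondrial genes and 14.1% to 14.6% with a pool left out. Tissue lists together held 24.9%, against 26.0% without mitochondrial genes and 24.7% to 25.0% with a pool left out.

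Called pairs numbered 1518 (841 with a higher, 677 with b higher). The test of any difference called 2526 (1372 and 1154), and a test against 8-fold, chosen after seeing the data, called 387 (240 and 147). Without a replicate block the count was 1481 (824 and 657), limma called 1432, DESeq2 1404, and with a pool left out the count was 1469 to 1528 (816 to 848 and 653 to 680). Among named pairs called at 2-fold, besides those lost against 8-fold, acvr2b, aurk and mtss1l lost the call in limma, in DESeq2 and without some single pool, sftpb in DESeq2, and fhl2 with pools 1 and 2 only. Without the replicate block acvr2b and mtss1l were lost, and no other named call was.

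Log2 ratios whose sign turned were near 0 or moved between the sets of pools, and none was called. With pools 1 and 2 only, dyrk1a was at 0.00, tnik at -0.14, plec at 0.10, cryba2 at 0.03, socs3 at 0.77 and aldh3a2 at -0.54. With pools 3 to 5 only, mip was at -0.00, and limma put tnik at -0.00. With no replicate block mip was at -0.00, tnik at -0.02, plec at 0.02 and socs3 at 0.06. With a pool left out, mip ranged from -0.01 to 0.02, dyrk1a from -0.04 to 0.02, tnik from -0.03 to 0.04, plec from -0.05 to 0.04, cryba2 from -0.03 to 0.01 and socs3 from -0.34 to 0.07. The cause was not tested. Alternatives that need coding length or protein identity were not run. Depth limits genes below 1 CPM, where 3 counts are 0.0272 to 0.187 CPM.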

Other observations

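Genes of dividing cells were read in all 5 pools. The DNA-unwinding topoisomerase top2a, needed to separate chromosomes, averaged 129.8 ± 12.7 CPM and the mitotic kinase cdk1 averaged 35.6 ± 2.84 CPM (SD, n = 5 pools). The replication licensing helicase genes mcm2 and mcm4 averaged 78.6 ± 14.9 and 87.6 ± 14.2 CPM, and both were lower in pools 1 and 2 than in each of pools 3 to 5. The chromosomal passenger copy birc5b was at 0.341 ± 0.22 CPM.

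The proteasome, which degrades proteins marked for removal, gave 129.5 ± 16.6 CPM for its regulatory subunit gene psmd1 and 66.7 ± 12.1 CPM for its catalytic subunit gene psmb5. The catalytic subunits that replace the constitutive ones in immune cells were far lower, with psmb8a at 0.861 ± 0.392 CPM and psmb9a at 0.699 ± 0.21 CPM. Levels are not divided by transcript length, so only the size of this gap in reads is given. Neuropeptide genes of the hypothalamus and other brain regions were also low. Thyrotropin-releasing hormone (trh) averaged 9.65 ± 1.6 CPM, npy 5.41 ± 1.04, galn 5.57 ± 1.04, oxt 3.97 ± 1.04, avp 1.25 ± 0.285 and hcrt 0.243 ± 0.152 CPM.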
